A study of Bos taurus and Mus musculus with 16 samples.

Results

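Rab GTPases and the genes around them were followed in preimplantation embryos in which the transcription factor gene Tead4 (TEAD4 in cattle) had been targeted with a cytosine base editor. Members were taken by symbol: every gene whose name is Rab followed by a number, with the optional letters of the family. By this spelling 57 of the 16655 genes in the mouse table and 53 of the 14852 genes in the bovine table were members. To be tested, a gene had to average 10 or more normalized reads in its table, which left 47 members among 11386 tested mouse genes and 41 among 8884 tested bovine genes. The member just inside this limit was Rab26 in mouse, with a mean of 11.2 normalized reads, and the one just outside was Rab43, with 7.94. In cattle they were RAB3C, with a mean of 10.2, and RAB39A, with 9.45. Too low to be tested were 10 mouse members (Rab3c, Rab8b, Rab19, Rab25, Rab33a, Rab36, Rab37, Rab40b, Rab43 and Rab44) and 12 bovine members. The spelling also took in genes that are not Rab GTPases, namely Rab3ip (an exchange factor for Rab8) and the antisense transcripts Rab10os and Rab26os in mouse, and RAB3IP and RAB5IF in cattle.

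The edited group received mRNA of BE3, a fusion of a cytidine deaminase with a Cas9 nickase, together with guide RNAs against Tead4 or TEAD4, at the zygote stage. The control group received BE3 mRNA without a guide RNA, so that any effect of guide RNAs as such cannot be told apart from an effect of the edit. Collection was on day 3.25 for mouse, as morulae (2 edited and 2 control samples), and on day 7.0 for cattle, as blastocysts (6 edited and 6 control samples). The number of embryos per sample and the origin of samples from separate collections are not stated in the labels, and p-values therefore measure the spread between these samples only, which may be technical.

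Rab proteins are small GTPases that mark the membranes of the cell. An exchange factor (GEF) loads a Rab with GTP, the loaded Rab recruits effectors such as motors, tethers and fusion factors, and a GTPase-activating protein (GAP) ends the cycle. Rab5 marks early endosomes, Rab7 late endosomes, and Rab4, Rab11 and Rab25 the routes by which internalized membrane returns to the surface, whereas Rab1, Rab2, Rab6, Rab8, Rab3 and Rab27 serve the path through the Golgi apparatus to secretion. In the cleaving embryo, apical membrane is set apart in the outer cells that become trophectoderm, and recycling and transcytosis through Rab proteins supply such membrane in epithelia.

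A Rab is held on its membrane by lipid tails joined to cysteines at its carboxy end, and that end is also where close relatives differ most. The last 45 coding bases, stop codon included, are shown 5′ to 3′ for the recycling and Golgi Rabs on which the mouse results turn and for their closest relatives, with cysteine codons in capitals. They were read from the GENCODE M21 transcripts of GRCm38 (mm10), and each of these coding ends held 2 cysteine codons among its last 5 codons before the stop.
Rab17: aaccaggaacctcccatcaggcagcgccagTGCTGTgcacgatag
Rab4a: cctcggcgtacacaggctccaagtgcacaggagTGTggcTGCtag
Rab4b: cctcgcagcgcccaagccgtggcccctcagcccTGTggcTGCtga
Rab2a: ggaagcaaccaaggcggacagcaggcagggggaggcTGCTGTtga
Rab2b: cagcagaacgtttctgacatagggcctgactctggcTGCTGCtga
Rab11a: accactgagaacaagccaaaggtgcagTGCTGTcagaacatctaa
Rab11b: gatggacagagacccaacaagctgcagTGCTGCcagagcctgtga
Rab25: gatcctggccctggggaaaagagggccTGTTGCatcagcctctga
Over the aligned coding sequence the relatives were 75.7% identical for Rab2a and Rab2b, 74.8% for Rab4a and Rab4b, and 75.7% for Rab11a and Rab11b. Between the whole transcripts used, untranslated ends included, the longest shared stretches were 26, 23 and 14 bases, in that order. Rab11a and Rab25 were 62.1% identical over the aligned coding sequence, with a longest shared stretch of 11 bases between whole transcripts.

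All libraries were primed with oligo(dT) and made by the Smart-seq2 procedure. The edited mouse samples held 4386305 and 6109425 reads and the control mouse samples 4187826 and 3642907. Edited bovine samples held 817329 to 2259064 reads and control bovine samples 934078 to 2501592. A level is given as normalized reads, the read count of a gene divided by the DESeq2 size factor of its sample, and 3 reads, the limit that a count of 0 allows, correspond to 2.13 to 3.79 normalized reads in mouse and 1.71 to 5.56 in cattle. Such intervals and limits cover counting error only. A log2 fold change is the difference of mean log2(normalized reads + 1), edited minus control, with the standard error of limma, and understates the change of low genes. A member passed where its Benjamini-Hochberg adjusted p, over all tested genes of its species, was under 0.05. In bulk samples, fewer cells of a type and less RNA per cell cannot be told apart.

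Tead4 itself stood at 57.2 and 76.5 normalized reads in edited morulae, against 458.2 and 518.6 in control morulae, which was 13.7% of the control mean (log2 fold change −2.86 ± 0.25, limma adjusted p = 5.37e-09). In cattle TEAD4 averaged 41.2 ± 15.6 normalized reads in edited blastocysts and 96.7 ± 23.4 in control blastocysts (SD, n = 6 each), or 42.6% of control, and the groups overlapped. The bovine value did not pass with limma (log2 fold change −1.25 ± 0.25, adjusted p = 0.235), and passed with DESeq2 (adjusted p = 0.0066). Of 8 trophectoderm markers tested in mouse, 5 fell and 3 did not pass, the highest of the 8 at a log2 fold change of 0.46. Their summed level was 1988 to 2188 normalized reads in edited against 6418 to 7477 in control morulae. Of 5 markers of the inner cell mass 3 rose and 2 did not pass. The lowest of the 5 was at −0.58, and all 5 had a limma unadjusted p under 0.05. The summed level of the 5 was 2861 to 3503 in edited against 2295 to 2676 in control morulae. Markers of blood cells summed to 94.97 to 174.5 normalized reads in edited and 67.0 to 80.5 in control morulae over the 4 of 11 with values, most of it Cd68, and neither of the 2 tested passed. The cumulus cell markers Star and Foxl2 summed to 14.9 to 30.5 in edited and 8.85 to 14.5 in control morulae, and no sperm marker had a value. The part of these markers in any Rab result was not tested.

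Edited morulae differed from control morulae in 11 of the 47 tested Rab members. Rab17, Rab4a, Rab2a, Rab29, Rab9 and Rab11a were lower, and Rab39, Rab2b, Rab10os, Rab18 and Rab27a were higher. The 5 higher members were 10.6% of those tested, where 6.92% of all tested mouse genes were called higher. The 6 lower members were 12.8%, where 8.38% of all tested genes were called lower. Both shares lie close to the background, and the median log2 fold change over the 47 members was −0.09, against −0.005 over all tested genes. Only 4 of the 5 higher members are Rab GTPases, since Rab10os is an antisense transcript. In the authors' deposited comparison 9 of 47 members had an adjusted p under 0.05, where 11.8% of the mouse genes with an adjusted p did. All 9 are among the 11 members called here, of which Rab2b and Rab27a did not pass there. Both comparisons used the same libraries, so this overlap is not independent evidence.

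**Figure D1:**
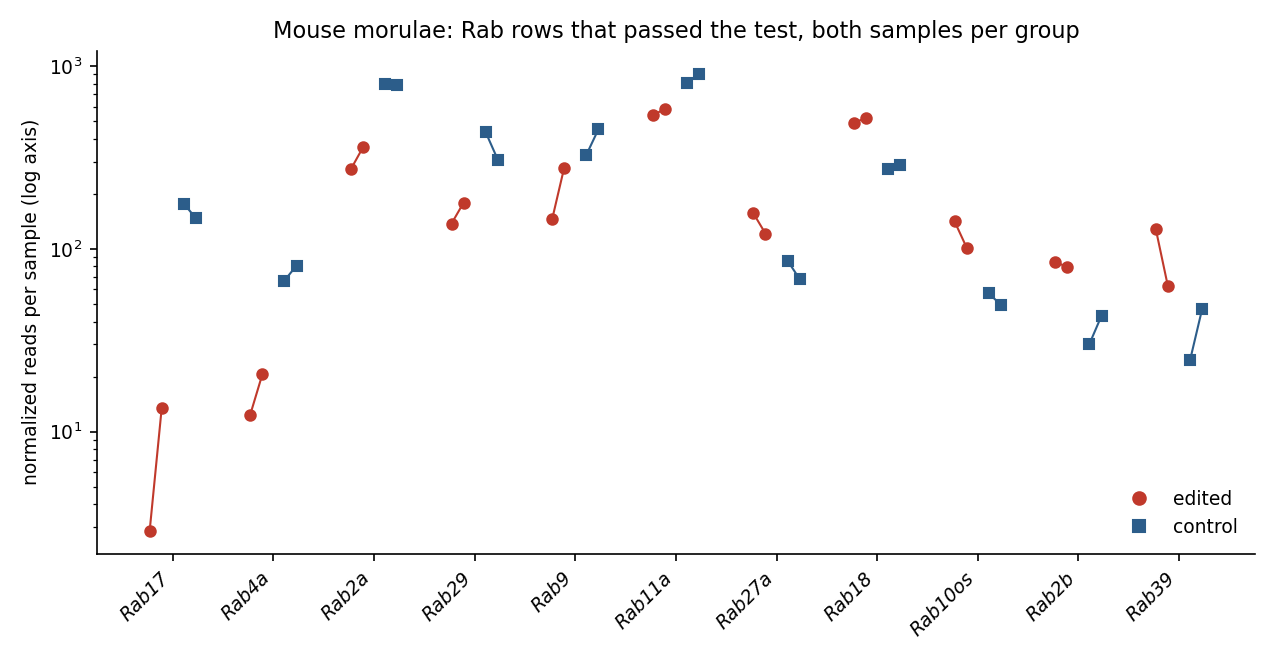
Normalized reads (log axis) of the 11 Rab members that passed in mouse morulae, ordered by log2 fold change, with both edited samples (circles) left of both control samples (squares) for each gene. Rab17 shows the widest gap, with 2.86 and 13.5 normalized reads in edited against 176.6 and 146.7 in control morulae.

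The largest difference was that of Rab17, a Rab of polarized epithelial cells that acts in apical recycling and transcytosis. Its gene lies at chr1:90958133-90969661 on the minus strand of GRCm38. Rab17 stood at 2.86 and 13.5 normalized reads in edited morulae, against 176.6 and 146.7 in control morulae. Both edited samples lay far below both control samples, and the edited samples also lay apart from each other. The lower edited value rests on 3 reads, for which the exact Poisson interval at 95% confidence runs from 0.59 to 8.36 normalized reads, and the higher on 19. The mean in edited morulae was 5.05% of the control mean, with a log2 fold change of −4.44 ± 0.50 (limma adjusted p = 9.05e-07). It passed under all 15 alternatives in processing, and only its size moved with a library: it was −3.49 without edited replicate 1 and −5.39 without edited replicate 2. Rab25, another epithelial Rab and a relative of Rab11, was too low to be tested, with 2.86 and 0.709 normalized reads in edited and 6.71 and 8.85 in control morulae, on 1 to 7 reads each.

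Among the endocytic and recycling Rabs (Rab4, Rab5, Rab7, Rab11 and Rab25) the 2 members that fell were Rab4a and Rab11a, of 8 tested, and none rose. The shares were 25% lower and 0% higher, where 8.38% of all tested mouse genes were called lower and 6.92% higher. In so small a group the share rests on 2 genes. Rab4a, which drives rapid return from early endosomes, stood at 12.4 and 20.6 normalized reads in edited morulae, against 67.0 and 81.0 in control morulae. The groups lay well apart, with edited morulae at 22.3% of control. Its log2 fold change was −2.14 ± 0.43 (limma adjusted p = 0.00116), and −2.002 without control replicate 2 (adjusted p = 0.0582). Rab4a lies at chr8:123805985-123835287 on the plus strand and shares its locus with the predicted gene Gm20388 on the same strand, so its reads may have been split or dropped in counting. Its relative Rab4b, which recycles from the same endosomes, had 45.8 and 40.4 normalized reads in edited and 50.3 and 48.1 in control morulae (log2 fold change −0.19 ± 0.37, adjusted p = 0.784). Rab4b overlaps the predicted gene Gm21983 on its own strand, so the same limit holds for it. Among the other called members, Rab11a, Rab18, Rab27a and Rab39 also overlap an annotated gene on their own strand.

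Rab11a, the Rab of the perinuclear recycling endosome and of its transport to the apical surface, lies at chr9:64715299-64737758 on the minus strand. It had 537.7 and 581.9 normalized reads in edited morulae, against 802.3 and 908.2 in control morulae. The groups did not overlap, and edited morulae stood at 65.5% of control (log2 fold change −0.61 ± 0.18, limma adjusted p = 0.0238). This call was the less firm of the recycling calls. Its adjusted p was 0.138 without control replicate 1 and 0.294 without control replicate 2. With every sample scaled to the same total, its log2 fold change was −0.48 (adjusted p = 0.0648), and −0.44 when the most abundant gene was also left out of the total (adjusted p = 0.0895). These scalings moved the median of all tested mouse genes to 0.12 and 0.16, and the share of called genes that were higher from 45.2% to 61.9% and 67.6%. Rab11b, its close relative, had 409.0 and 370.7 normalized reads in edited and 401.2 and 345.3 in control morulae, and those ranges overlapped (log2 fold change 0.06 ± 0.20).

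The Rab5 genes and Rab7 did not pass. Rab5a, Rab5b and Rab5c, which control fusion of early endosomes, had log2 fold changes of −0.13 ± 0.18, 0.06 ± 0.24 and 0.14 ± 0.27. Rab7, which marks late endosomes and lysosomes, was at −0.09 ± 0.17, with 1140 and 1262 normalized reads in edited and 1334 and 1219 in control morulae. The 95% interval of the Rab7 difference ran from −0.44 to 0.26 and that of Rab5a from −0.51 to 0.25, so that differences the size of those of Rab4a or Rab17 lay outside both. The median over the 8 tested endocytic and recycling members was −0.11.

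**Figure D2:**
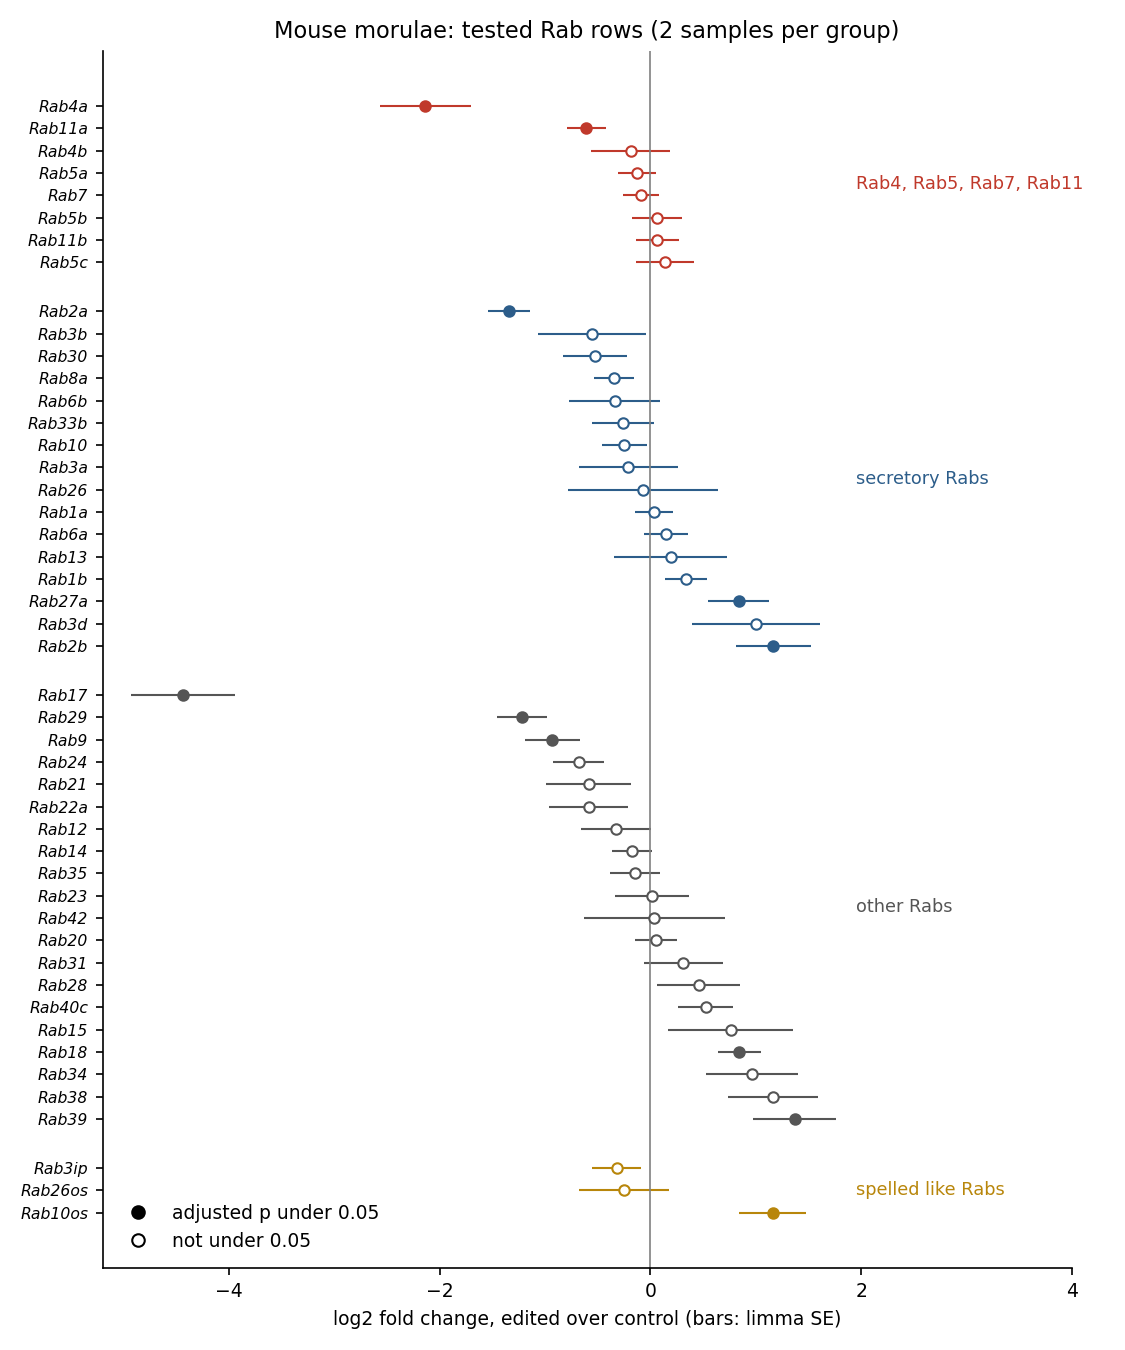
Log2 fold change (edited over control, limma standard error as bars) of all 47 tested Rab members in mouse morulae, grouped by role and ordered within each group; filled circles passed an adjusted p of 0.05. Rab17 lies farthest from 0 at −4.44 and Rab4a next at −2.14, while the Rab5 members, Rab7 and Rab11b lie between −0.13 and 0.14.

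Of 16 tested secretory Rabs, 1 fell (Rab2a) and 2 rose (Rab2b and Rab27a). These were 6.25% and 12.5%, where 8.38% and 6.92% of all tested mouse genes were called lower and higher. Rab2a works between the endoplasmic reticulum and the Golgi apparatus and lies at chr4:8535644-8607778 on the plus strand. It had 272.7 and 358.6 normalized reads in edited morulae, against 794.5 and 791.8 in control morulae. Edited samples were at 39.8% of control, well clear of the close control values. The log2 fold change was −1.34 ± 0.20 (limma adjusted p = 4.68e-05), and Rab2a passed under all 15 alternatives.

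Rab2b, the other Rab2 gene, lies at chr14:52261759-52279545 on the minus strand and overlaps Tox4 on the other strand. It had 84.9 and 79.4 normalized reads in edited morulae, against 30.2 and 43.0 in control morulae. This was the opposite direction to Rab2a, again with no overlap (log2 fold change 1.17 ± 0.36, limma adjusted p = 0.0260). The Rab2b call did not hold with DESeq2 (adjusted p = 0.0722), nor without edited replicate 1 (0.0831), control replicate 1 (0.252) or control replicate 2 (0.0699). Rab27a, which docks secretory granules at the plasma membrane and lies at chr9:73044854-73097629, had 156.4 and 121.2 normalized reads in edited and 86.0 and 68.3 in control morulae. Its adjusted p with limma was 0.0495, at the edge of the threshold (log2 fold change 0.84 ± 0.29), and it passed under 6 of 15 alternatives. Leaving out edited replicate 1, control replicate 1 or control replicate 2 gave Rab27a an adjusted p of 0.236, 0.138 or 0.338.

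The other 13 secretory Rabs did not pass, and the median over the 16 was −0.14. Rab1a, the Rab of transport from the endoplasmic reticulum to the Golgi apparatus, had 1196 and 1636 normalized reads in edited and 1281 and 1455 in control morulae (log2 fold change 0.04 ± 0.18). Rab8a and Rab10, which carry vesicles from the Golgi apparatus to the cell surface, were at −0.34 ± 0.19 and −0.25 ± 0.21. Rab3d, a Rab of regulated secretion, stood at 1.002 ± 0.606 on few reads, with 20.02 and 21.97 normalized reads in edited and 7.82 and 12.7 in control morulae.

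The balance between close relatives is free of the scaling between samples. Rab2b made up 23.7% and 18.1% of the Rab2 reads in edited morulae, against 3.66% and 5.15% in control morulae. Rab4a made up 21.3% and 33.7% of the Rab4 reads in edited morulae, against 57.1% and 62.8% in control morulae, so that Rab4b held the larger part in edited morulae and Rab4a in control morulae. Rab11a took 56.8% and 61.1% of the Rab11a and Rab11b reads in edited morulae, against 66.7% and 72.4% in control morulae. The groups did not overlap in any of these, and an exact permutation test of 2 against 2 samples cannot give a two-sided p below 0.333. Each of these pairs holds a member called lower in the same samples, so the separation of shares is not independent evidence. Among uncalled relatives, Rab1a took 72.0% and 71.9% of the Rab1 reads in edited against 74.5% and 77.4% in control morulae, again apart. The shares of Rab5a, Rab5b and Rab5c overlapped. Normalized reads of single members were apart between groups for 26 of the 47 tested. The share over all genes was not computed, so this count cannot be read as a trait of the Rab members. Summed over both genes, Rab2 reads were 357.5 and 438.0 in edited against 824.7 and 834.8 in control morulae. Summed Rab4 reads were 58.16 and 60.95 in edited against 117.3 and 129.0 in control morulae.

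**Figure D3:**
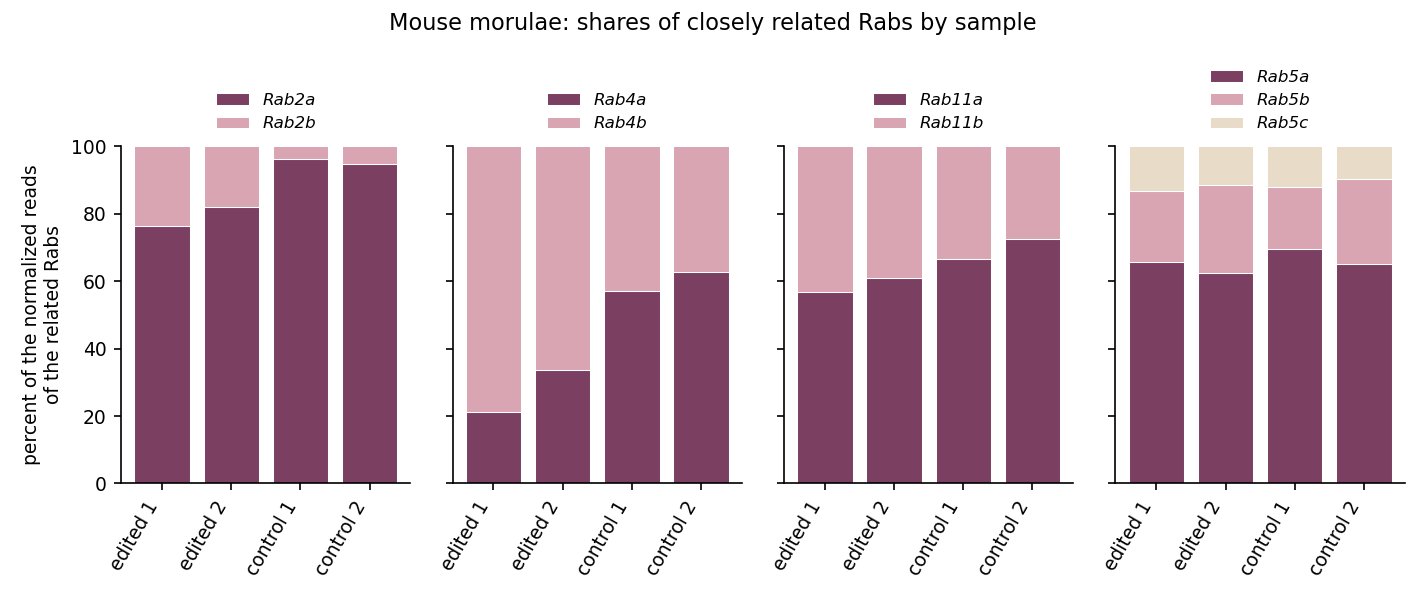
Share (percent) of the normalized reads of closely related Rabs held by each gene, per mouse sample, edited samples left of control samples. Rab2b holds 23.7% and 18.1% in edited against 3.66% and 5.15% in control morulae, and Rab4a 21.3% and 33.7% against 57.1% and 62.8%.

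Of the 20 tested Rabs of other roles, 3 fell and 2 rose (15% and 10%, against 8.38% and 6.92% of all tested mouse genes). Those that fell besides Rab17 were Rab29 and Rab9. Rab29, which works at the Golgi apparatus and lysosomes and recruits the kinase LRRK2, lies at chr1:131867224-131872887. It had 137.3 and 178.6 normalized reads in edited morulae, against 433.6 and 307.4 in control morulae (log2 fold change −1.22 ± 0.24, limma adjusted p = 0.000959). The groups were apart, and the adjusted p was 0.0956 without control replicate 1, where the log2 fold change was −0.97. Rab9, which returns cargo from late endosomes to the Golgi apparatus and lies at chrX:166457253-166479867, had 144.9 and 277.8 normalized reads in edited against 326.3 and 450.3 in control morulae (log2 fold change −0.93 ± 0.26, adjusted p = 0.0142). The gap for Rab9 was narrow beside the spread within each group. Its adjusted p was 0.197, 0.0547 and 0.289 without edited replicate 1, control replicate 1 and control replicate 2, and 0.0512 once a trend with transcript length was removed.

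Rab18, found on the endoplasmic reticulum and lipid droplets, had 490.1 and 518.8 normalized reads in edited morulae, against 272.7 and 288.4 in control morulae. Its samples agreed closely within each group (log2 fold change 0.84 ± 0.20, limma adjusted p = 0.00522), yet the adjusted p was 0.106 without control replicate 1 and 0.0747 without control replicate 2. Rab39, described on phagosomes of macrophages, lies at chr9:53684110-53706232 on the minus strand. It had 127.8 and 62.4 normalized reads in edited and 24.6 and 46.8 in control morulae (log2 fold change 1.37 ± 0.39, adjusted p = 0.0183). Its edited samples differed from each other, and the adjusted p was 0.256 without edited replicate 1 and 0.283 without control replicate 1. Rab38, which serves melanosomes and related organelles, followed Rab39 and Rab2b in log2 fold change, at 1.16 ± 0.43, and did not pass (adjusted p = 0.0638), with 53.4 and 48.2 normalized reads in edited and 25.7 and 19.0 in control morulae. Rab38 did pass with samples scaled to equal totals (adjusted p = 0.0402), with the most abundant gene also left out (0.0346), and once the length trend was removed (0.0422). Together with Rab38, 15 Rabs of other roles did not pass, the lowest of them Rab24, a Rab of autophagy, at −0.68 ± 0.24 (adjusted p = 0.0553). Rab24 passed with a pseudocount of 5 (adjusted p = 0.0494), with a minimum mean of 50 (0.0469) and with the replicate block (0.0469).

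Rab10os, an antisense transcript over the Rab10 gene at chr12:3235504-3250377, had 141.1 and 101.4 normalized reads in edited and 57.0 and 49.3 in control morulae (log2 fold change 1.16 ± 0.31, limma adjusted p = 0.0120). Rab10 itself, on the other strand, did not pass, at −0.25 ± 0.21. The strand setting of the counting is not stated in the labels, so reads of the 2 transcripts cannot be told apart with certainty. The Rab10os call was lost without edited replicate 1 (adjusted p = 0.108), control replicate 1 (0.0732) or control replicate 2 (0.135).

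Leaving out single libraries moved the counts more than any other choice. Of the 5 members called higher, Rab18 alone passed without edited replicate 1, Rab39 alone without control replicate 2, and none without control replicate 1. There Rab34, a Rab of Golgi and ciliary membranes that is not among the 5, was the 1 member called higher (adjusted p = 0.0317). Without edited replicate 2 all 5 passed, joined by Rab15, Rab34 and Rab40c, which makes 8. Of the 6 called lower, 5 passed without edited replicate 1 and 3 without either control replicate, and without edited replicate 2 Rab24 joined all 6 (adjusted p = 3.94e-06). Each of these fits leaves 1 sample in a group, which is assumed to vary like the others. Over all tested genes the calls fell to 535 and 533 of 1742 without control replicate 1 and control replicate 2. The members called lower also had shorter transcripts, with exonic lengths of 1468 to 2992 bases, than those called higher, with 2971 to 6850 bases. After removal of a trend with length, 5 members were higher, with Rab38 in place of Rab27a, and 5 lower, without Rab9.

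Per kilobase of exonic length, Rab7 stood highest among the Rabs of control morulae, with 460.1 normalized reads per kilobase in edited and 489.2 in control morulae. Rab20, a Rab of endosomes and phagosomes, followed with 462.8 in edited and 446.8 in control morulae, and these neighbours overlapped in the control samples. Rab2a came next in control morulae, with 148.0 in edited and 371.8 in control morulae, beside Rab1a with 372.7 in edited and 360.0 in control morulae, and these too overlapped in the control samples. After these came Rab11a, with 187.1 in edited and 285.8 in control morulae; its control samples did not reach those of Rab1a. Rab17 was of intermediate level in control morulae, with 4.10 normalized reads per kilobase in edited and 81.1 in control morulae. Over the 47 tested members, normalized reads summed to 10300 and 11720 in edited and 12320 and 12200 in control morulae.

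The partners of the Rab cycle were described from 10 lists of textbook genes, of which 194 genes were tested in mouse. Of these 7 rose and 10 fell, a smaller share in each direction than the 6.92% and 8.38% of all tested genes. Those shares are also the background for each single list below, whose counts rest on few genes. In the list of Rab11 and other recycling effectors, 3 of 16 fell and none rose, while the list's median was 0.25. Myo5b, the motor that Rab11 recruits, had 23.8 and 34.0 normalized reads in edited and 97.2 and 68.3 in control morulae (log2 fold change −1.48 ± 0.38, limma adjusted p = 0.00808, and 0.195 without control replicate 1). Sh3tc2, a Rab11 effector of Schwann cells, was at −1.40 ± 0.43 (adjusted p = 0.0278, and 0.0700 and 0.355 without control replicate 1 and control replicate 2). Sh3tc2 also failed with DESeq2 (0.0680) and with equal totals without the most abundant gene (0.0547). The Rab11 adaptor Rab11fip4 was at −1.12 ± 0.30 (adjusted p = 0.0110, and 0.0594, 0.147 and 0.111 without edited replicate 1, control replicate 1 and control replicate 2).

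In the list of early and late endosome effectors, 3 of 22 rose, none fell, and the median was 0.34. Of all tested mouse genes 6.92% were called higher and 8.38% lower. Plekhm1, which ties Rab7 to lysosome fusion, had 306.1 and 269.3 normalized reads in edited and 137.4 and 129.0 in control morulae (log2 fold change 1.10 ± 0.24, limma adjusted p = 0.00206, and 0.0573 without control replicate 2). Rbsn, a shared effector of Rab4 and Rab5, was at 1.14 ± 0.29 (adjusted p = 0.00790, and 0.178, 0.0900 and 0.0857 without edited replicate 1, control replicate 1 and control replicate 2). Vps18, a core subunit of the endosomal tethers CORVET and HOPS, was at 0.97 ± 0.33 (adjusted p = 0.0488, and 0.510, 0.431 and 0.0809 without the same libraries). Vps18 passed under 7 of 15 alternatives, and its adjusted p was 0.0528 with the replicate block, 0.0571 with robust limma, 0.0829 without a filter, 0.0885 with DESeq2 and 0.103 with the length trend removed.

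Among 29 exchange factors 3 rose and 2 fell, with a median of 0.22. Rab3il1, a relative of Rab3ip that activates Rab8, had 784.7 and 486.2 normalized reads in edited and 242.5 and 277.0 in control morulae (log2 fold change 1.25 ± 0.22, limma adjusted p = 0.000354), and passed under all 15 alternatives. Dennd4c, which activates Rab10, was at 1.204 ± 0.354 (adjusted p = 0.0205, and 0.361 without control replicate 1), and at an adjusted p of 0.0699 with DESeq2. Dennd1b, which activates Rab35, was at −1.13 ± 0.38 (adjusted p = 0.0451), and its adjusted p was between 0.219 and 0.256 without edited replicate 1 or either control replicate. Dennd1b passed under 6 of 15 alternatives, and failed with edgeR (0.0700), DESeq2 (0.143), either filter (0.0653 without one, 0.0536 at a mean of 50) and equal totals (0.0742, and 0.0877 without the most abundant gene). Of 30 GAPs only Evi5l, which carries the TBC domain of Rab GAPs, passed, at 1.79 ± 0.46 (adjusted p = 0.00865, and 0.0670 and 0.0688 without edited replicate 1 and control replicate 1).

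Of 35 SNARE and fusion genes 2 fell. Stx7, a SNARE of late endosomes, had 129.7 and 182.9 normalized reads in edited and 423.5 and 403.5 in control morulae (log2 fold change −1.42 ± 0.23, limma adjusted p = 0.000127), and passed under all 15 alternatives. Use1, a SNARE of the endoplasmic reticulum, was at −0.73 ± 0.21 (adjusted p = 0.0185, and 0.200 and 0.166 without control replicate 1 and control replicate 2), and at 0.0695 with equal totals without the most abundant gene. Snx2, a sorting nexin of the retromer list, was the 1 of 12 that fell there, with 1080 and 1417 normalized reads in edited and 2731 and 2205 in control morulae (log2 fold change −0.99 ± 0.18, adjusted p = 0.000377, and 0.0559 without control replicate 1). Rabggtb, a subunit of the enzyme that attaches the lipid tails to the cysteines printed above, was the only 1 of 7 chaperone and prenylation genes to pass, at −0.63 ± 0.19 (adjusted p = 0.0276). Without edited replicate 1, control replicate 1 and control replicate 2 the adjusted p of Rabggtb was 0.164, 0.273 and 0.171, and it was 0.0687 with equal totals and 0.0917 with the most abundant gene also left out. Of 20 COPI and Arf genes Copb1, a coatomer subunit, fell by 0.68 on the log2 scale (adjusted p = 0.0462, and 0.308, 0.25 and 0.276 without those libraries). Copb1 passed under 7 of 15 alternatives, and failed without a filter (0.0762), with edgeR (0.0626), with DESeq2 (0.0917) and with equal totals (0.1, and 0.128 without the most abundant gene). None of 12 COPII genes and none of 11 exocyst and secretory effector genes passed with limma, and 1 of each had an unadjusted p under 0.05.

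In bovine blastocysts no Rab member passed in either direction, of 41 tested. Across the whole bovine table limma called 0% of tested genes higher and 0.0113% lower, and edgeR and DESeq2 also called no Rab member. With an unadjusted p under 0.05 there were 3 members (RAB5B, RAB15 and RAB5A), or 7.32% of the 41, where 5.88% of all tested bovine genes had one. The members' log2 fold changes ran from −0.66 to 0.60 with a median of 0.06, against 0.01 over all tested genes, and edited and control values overlapped for every member. Summed over the 41 members, normalized reads averaged 4028 ± 344 in edited and 3882 ± 482 in control blastocysts (SD, n = 6 each).

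Smallest among the bovine unadjusted p-values were those of 2 Rab5 genes of early endosomes, with differences in opposite directions. RAB5B ran from 120.3 to 224.2 normalized reads with a median of 159.7 in edited blastocysts, against 174.6 to 337.2 with a median of 258.5 in control blastocysts. Most edited samples lay below the control samples, with some overlap (log2 fold change −0.66 ± 0.20, unadjusted p = 0.00355, limma adjusted p = 0.792). RAB5A ran from 53.8 to 103.8 with a median of 67.8 in edited blastocysts, against 28.7 to 69.6 with a median of 47.1 in control blastocysts (log2 fold change 0.60 ± 0.22, unadjusted p = 0.0144, adjusted p = 0.792). RAB5A made up 16.0% ± 2.5 of the RAB5 reads in edited and 9.30% ± 3.13 in control blastocysts, and RAB5B 36.2% ± 4.6 in edited and 49.3% ± 8.3 in control blastocysts (SD, n = 6 each). The ranges of both shares overlapped between groups. Control replicate 6 held the lowest control value of RAB5A, 28.7, and the highest of RAB5B, 337.2. Without that sample the log2 fold changes were 0.46 for RAB5A and −0.58 for RAB5B. RAB5C, the remaining gene, was at −0.02 ± 0.18.

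Among the remaining endocytic and recycling members RAB7A had the highest value, 0.42 ± 0.20, with 142.5 to 260.3 normalized reads around a median of 199.7 in edited and 104.6 to 210.3 around 137.4 in control blastocysts. RAB4A, RAB4B, RAB7B, RAB11A, RAB11B and RAB25 lay between −0.09 and 0.31. RAB11A averaged 599.9 ± 65.1 normalized reads in edited and 593.6 ± 159.0 in control blastocysts (SD, n = 6 each), and the 95% interval of its difference ran from −0.33 to 0.45. RAB25, too low to test in morulae, was well measured here, with 115.8 ± 25.2 normalized reads in edited and 106.4 ± 18.6 in control blastocysts (log2 fold change 0.10 ± 0.19).

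**Figure D4:**
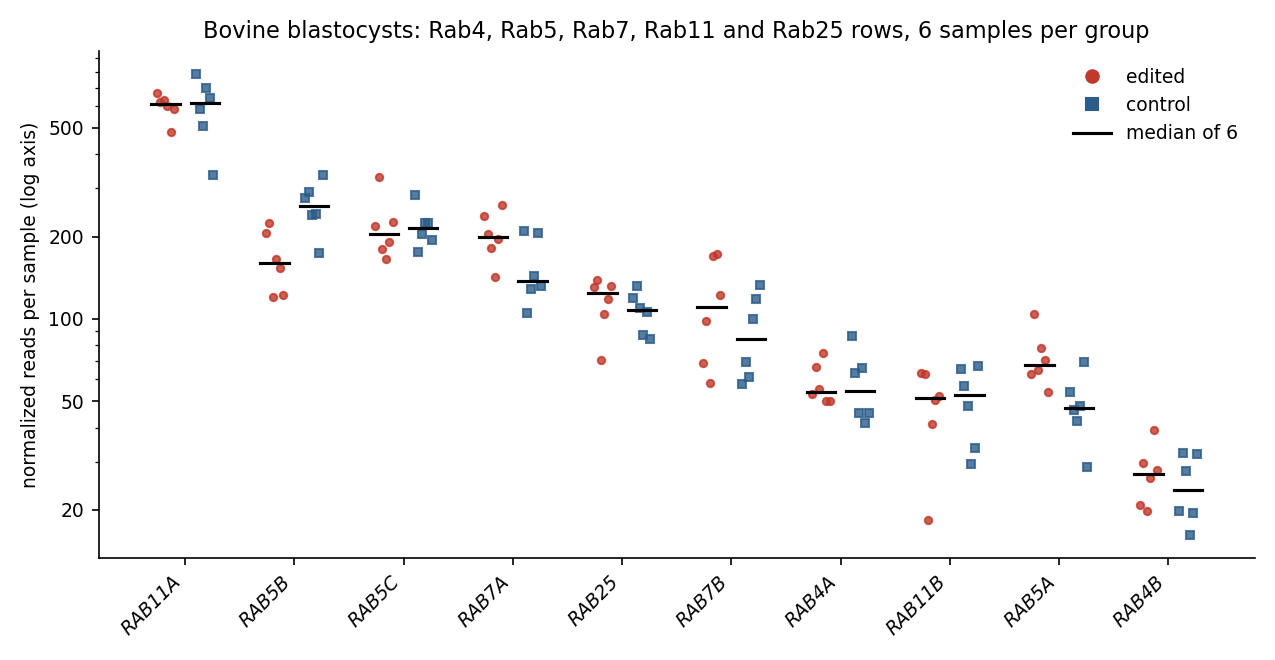
Normalized reads (log axis) of the 10 endocytic and recycling RAB genes in bovine blastocysts, 6 edited samples (circles) left of 6 control samples (squares) for each gene, with the median as a bar. Edited and control samples overlap for every gene, RAB5B with a median of 159.7 in edited against 258.5 in control and RAB5A with 67.8 against 47.1.

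Outside that group RAB15, a Rab of recycling endosomes, averaged 48.6 ± 8.8 normalized reads in edited and 73.4 ± 24.1 in control blastocysts (log2 fold change −0.54 ± 0.22, limma adjusted p = 0.792). Its highest control value, 109.4, was that of control replicate 6. RAB22A, a relative of RAB5 on early endosomes, was at −0.61 ± 0.37 and RAB20 at 0.51 ± 0.39, neither of which passed. The bovine counterparts of the mouse members that fell were at 0.30 ± 0.41 for RAB17, −0.12 ± 0.18 for RAB2A, −0.12 ± 0.45 for RAB29 and 0.18 ± 0.23 for RAB9A. RAB17 averaged 15.6 ± 9.7 normalized reads in edited and 11.4 ± 4.9 in control blastocysts. Of the members that rose in mouse, RAB2B was at 0.04 ± 0.30, RAB18 at 0.28 ± 0.23 and RAB27A at 0.07 ± 0.23. None of 175 tested partner genes passed in cattle, of the same 10 lists, and of the trophectoderm and inner cell mass markers none passed either. The 18S ribosomal RNA gene RN18S1 took 9.27% to 19.7% of reads in edited and 12.4% to 36.6% in control blastocysts. Control replicate 6, at the upper end, held the lowest control value for 39.0% of Rab members and for 27.1% of all tested genes, and without it the median over the members was −0.05.

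The difference between species was tested directly on the 34 Rab symbols tested in both tables. It cannot be told apart from the difference between morula and blastocyst. Nor can it be told apart from the level left of the targeted gene, 13.7% of control in mouse and 42.6% in cattle. The species difference passed for RAB17, RAB2A and RAB4A, or 8.82% of the 34, where 6.07% of all 7073 shared symbols passed. The log2 fold change in mouse minus that in cattle was −4.73 ± 0.64 for RAB17 (Benjamini-Hochberg adjusted p from both limma fits = 1.85e-06), −1.22 ± 0.27 for RAB2A (adjusted p = 0.00390) and −2.18 ± 0.48 for RAB4A (adjusted p = 0.00437). RAB17 and RAB4A were negative in mouse and positive in cattle, while RAB2A was negative in both. Without mouse control replicate 1 only RAB17 passed, without mouse control replicate 2 RAB17 and RAB2A did, and without mouse edited replicate 2 RAB15 joined the 3. Next among the 34 were RAB11A at −0.67 ± 0.26 (adjusted p = 0.120) and RAB5A at −0.73 ± 0.29 (adjusted p = 0.126), which did not pass. Only symbols spelled alike were compared, so Rab9 with RAB9A and Rab7 with RAB7A were not tested for a species difference.

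**Figure D5:**
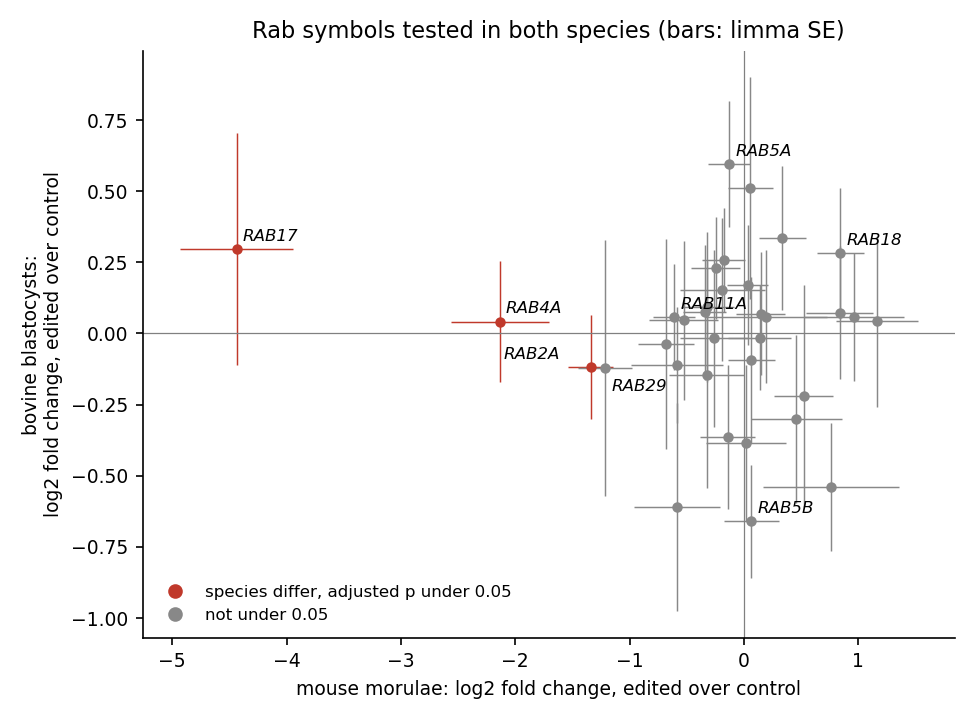
Log2 fold change (edited over control) of the 34 Rab symbols tested in both species, mouse morulae on the horizontal and bovine blastocysts on the vertical axis, limma standard errors as bars. RAB17, RAB4A and RAB2A (red) differed between species, and all bovine values lie between −0.66 and 0.60.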

How the data were processed

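Reads were trimmed, aligned, counted and normalized by the authors with Trimmomatic, HISAT2, featureCounts and DESeq2 on mm10 and ARS-UCD1.2, per the submitters' processing notes, with versions not given there. The deposited signal values are read counts per gene over the size factor that DESeq2 gave each sample, per the file headers. The log2 fold changes and the adjusted p-values of the authors' own comparison stand in the same tables, per the file headers, and were quoted only as the authors' own. No label states the annotation, strand setting or handling of multi-matching reads, so values of close relatives and overlapping genes are uncertain. All values (100%) came out as whole reads within 0.05 of a read.

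Groups came from the sample titles, and each species was tested within its own table. Genes with a mean of at least 10 were fitted as log2(value + 1) in limma 3.58.1 under R 4.3.3 (mean trend, two-sided, edited minus control) and adjusted over all tested genes by Benjamini-Hochberg. The species test divides the gap between the log2 fold changes by their combined standard error, with Satterthwaite degrees of freedom. All 57 mouse symbols matched GENCODE M21 (GRCm38), which gave loci, lengths and coding ends. All 53 bovine symbols matched RefSeq names of ARS-UCD2.0, used for names only.

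Named genes were the called Rab members in both species, the Rab4, Rab5, Rab7, Rab11 and Rab25 genes, the 3 highest and the 3 lowest log2 fold changes per species, up to 3 called genes per partner list, Tead4 and the 5 highest Rabs per length. A few others are given to describe a group. The members, lists and roles were chosen with earlier results of these data known. Alternatives were pseudocounts of 0.5 and 5, no filter or a mean of at least 50, edgeR 4.0.16 and DESeq2 1.42.0 on recovered reads, robust limma, equal totals with and without the most abundant gene, a replicate block, each library left out, and, in mouse, removal of a length trend.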

Additional observations from a re-analysis of the deposited data

Results flagged for a closer look

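Within bovine groups of 6, single samples stood apart for 3 Rab members. RAB11B had 18.4 normalized reads in edited replicate 3, the lowest of its group, RAB18 had 35.4 in control replicate 6, and RAB22A had 3.89 in edited replicate 1. These were 3 of 44 groups examined, and chance gives about 1 in 20.

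The edited-minus-control difference itself differed between mouse morulae and bovine blastocysts for RAB17 by −4.73, for RAB2A by −1.22 and for RAB4A by −2.18 on the log2 scale, mouse minus bovine. Species, stage and the level left of the targeted gene cannot be told apart here.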

How the results depend on the processing

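Rab17 and Rab2a passed in mouse and no RAB gene passed in cattle under every alternative run. DESeq2 called 3 mouse members higher instead of 5. Across the fits that leave out 1 library, 1 to 8 mouse members were higher and 3 to 7 lower, and 1 to 4 Rab symbols differed between species. A minimum mean of 50 left 1 symbol (RAB2A) that differed between species, since RAB17 falls below it in cattle and Rab4a in mouse. The count of secretory members called higher was 0 with DESeq2 and 0 to 2 over the left-out libraries, and that of endocytic and recycling members called lower was 1 with either scaling to equal totals and 0 to 2 over the left-out libraries. Whether samples with the same replicate number share a collection is not stated in the labels, and they were not treated as pairs. With the numbers as a replicate block 5 mouse members were higher and 7 lower (Rab24 added). In that fit 1816 mouse genes passed instead of 1742, and no bovine member passed. Uncalled members near 0 changed sign under some alternatives. Scaling to equal totals gave 0.037 for Rab7, 0.026 for RAB11B, 0.0029 for RAB2A and 0.11 for RAB5C, and leaving out the most abundant gene as well gave 0.084 for Rab7 and 0.044 for Rab5a. Removing the length trend gave −0.018 for Rab11b, −0.024 for Rab1a and −0.0032 for Rab5b. Left-out libraries gave ranges of −0.043 to 0.17 for Rab11b, −0.19 to 0.26 for Rab1a, −0.14 to 0.25 for Rab20, −0.16 to 0.29 for Rab5b and −0.037 to 0.32 for Rab5c in mouse. In cattle they gave −0.23 to 0.15 for RAB11B, −0.14 to 0.064 for RAB5C, −0.096 to 0.15 for RAB11A, −0.058 to 0.16 for RAB27A, −0.45 to 0.13 for RAB29, −0.090 to 0.20 for RAB2B and −0.042 to 0.17 for RAB4A. Beyond what the settings themselves fix, the cause of these changes was not tested. Depth limits the low members most: Rab17 in edited morulae rests on 3 and 19 reads.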
